A study of Mus musculus with 2 samples.

Results

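The Msx and Dlx genes encode homeodomain transcription factors, and they were followed in RNA from mouse urogenital ridges homozygous and heterozygous for a deletion of the receptor for Müllerian inhibiting substance (MIS). The 8 genes were Msx1, Msx2 and Dlx1 to Dlx6, fixed by name, out of 18193 genes that the array's annotation names. All 12 probe sets that the annotation assigns to 1 of these genes alone were used, and the Entrez identifiers of all 12 matched the same symbol in the mouse RefSeq gene table. One pool, labelled Misr2-/-, was homozygous for a deletion of Misr2 and is described in the labels as not responsive to MIS. It was set against the pool labelled Misr2+/-, heterozygous for the same deletion and described as responsive. Each pool held approximately 100 urogenital ridges from embryos at E14.5 of a mix of C57Bl/6 and 129SVEV, with the gonads discarded, and each gave 1 Affymetrix array. Genotype was scored with a YFP reporter; the promoter that drives it and the sex of the embryos were not given in the sources used here. Neither pool was wild type, so values compare a deletion of both copies with a deletion of 1. With pooled tissue and 1 array per genotype there was no replicate and no test, and fewer cells of a type cannot be told apart from less RNA per cell.

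Msx genes are vertebrate counterparts of the fly gene muscle segment homeobox, and their products mostly act as transcriptional repressors. They are among the best known genes induced by bone morphogenetic proteins (BMPs) where epithelium and mesenchyme signal to each other, as in limb, tooth and reproductive tract. Dlx genes are counterparts of fly Distal-less, lie in the genome as neighbouring pairs (Dlx1 with Dlx2, Dlx3 with Dlx4, Dlx5 with Dlx6), and direct development of jaw, limb, forebrain interneurons and skin. The annotation lists Misr2 as Amhr2. Its product is the type II receptor for MIS, also called anti-Müllerian hormone, which signals through type I receptors and Smad proteins that it shares with BMPs.

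The targeted gene was checked first. The brightest Amhr2 probe set had a signal of 10.2 in the Misr2-/- pool and 1549.6 in the Misr2+/- pool, and the 3 probe sets for this gene were all under the floor in the Misr2-/- pool. The floor was each array's median, 139.4 for the Misr2-/- and 116.5 for the Misr2+/- array, and a gene counted as measured when its signal reached the floor in at least 1 pool. A dimmer signal was raised to the floor, so a fold against it is a lower bound. Log2 differences are Misr2-/- minus Misr2+/- after each array was divided by its median, which removes a shift of 0.26. As deposited, every difference is higher by 0.26, and against the hybridisation spikes it is lower by 0.39, so that smaller values change sign. Of 11431 measured genes, 25 were at least 2-fold lower (0.219%) and 27 at least 2-fold higher (0.236%) in the Misr2-/- pool. As deposited the split was 11 lower and 90 higher, and against the spikes it was 88 lower and 4 higher. In both pools Xist was under the floor, at 121.4 in Misr2-/- and 61.5 in Misr2+/- ridges, while the Y-linked genes Eif2s3y, Kdm5d and Uty were measured, with log2 differences of 0.10, 0.17 and 0.38.

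Msx2, Dlx5 and Msx1 were the measured members, and all 3 were lower in the Misr2-/- pool, as were 42.3% of all measured genes. Msx2 and Dlx5 reached the floor in the Misr2+/- pool alone, so the filter fixed their direction. Msx2 was at least 4.78-fold lower, Dlx5 at least 3.51-fold lower and Msx1 1.77-fold lower. The other 5 genes, Dlx1, Dlx2, Dlx3, Dlx4 and Dlx6, were under the floor in both pools. No member was at least 2-fold higher. The 2 members past 2-fold are set against 0.219% of all measured genes past the same threshold downwards, and the 3 past 1.5-fold against 0.884%. The members were chosen with these differences known, so the counts are a description. The median log2 difference of the 3 measured members was -1.81, and that of all measured genes was 0.04.

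**Figure D1:**
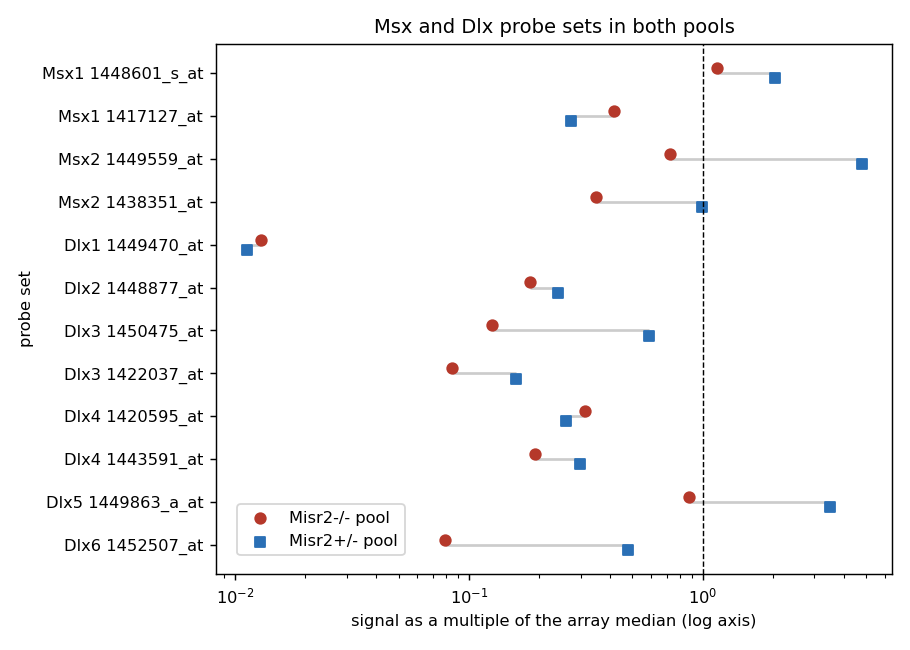
Signal of each of the 12 Msx and Dlx probe sets as a multiple of its array's median (log axis), with circles for the Misr2-/- pool and squares for the Misr2+/- pool. The dashed line is the median, used as the floor. Only the brighter Msx1 probe set lies above it in both pools, and the brighter Msx2 probe set and Dlx5 lie below it in the Misr2-/- pool and above it in the Misr2+/- pool.

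Msx2, a repressor needed for skull, tooth and skin appendage development and known in mouse from the Müllerian duct epithelium and vagina, had 2 probe sets. The brighter, 1449559_at, had a signal of 100.7 in the Misr2-/- pool, against 556.6 in the Misr2+/- pool. That is 0.722 times the array median in the Misr2-/- pool and 4.78 times the median in the Misr2+/- pool. The log2 difference was -2.26 or lower, since the Misr2-/- signal was under the floor, and the gene stood at rank 2 from the lowest of 11431, next after Amhr2. Ranks were taken on floored values, so the rank of such a bound reflects the Misr2+/- signal and can change with the floor. Of the 25 genes at least 2-fold lower, 12 were bounds of this kind. The dimmer probe set, 1438351_at, had signals of 48.8 in Misr2-/- and 115.8 in Misr2+/- ridges. It just missed the floor in the Misr2+/- pool, so no fold is given for it, and its Misr2-/- signal was the lower. The RefSeq table used for names places Msx2 on chromosome 13.

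Msx1, the paralogue that acts with Msx2 in tooth, palate and limb and, in mouse, in the uterus, also had 2 probe sets. The brighter, 1448601_s_at, had a signal of 160 in the Misr2-/- pool, against 236.2 in the Misr2+/- pool. Both values were above the floor, at 1.15 times the median in Misr2-/- and 2.03 times in Misr2+/- ridges. Its log2 difference was -0.82, at rank 44 from the lowest of 11431 genes. The suffix of its identifier marks a probe set that can detect more than 1 related transcript. The other, 1417127_at, was under the floor in both pools and ran the other way, with 58.3 in Misr2-/- and 31.7 in Misr2+/- ridges. The value for Msx1 therefore rests on 1 probe set not far above the floor. Msx1 lies on chromosome 5.

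Because both Msx genes were lower in the same pool, the stretches around their transcription starts are shown, from 250 bases before to 50 after, as given by RefSeq for GRCm38.p6. The tables held such a stretch for 4 of the 8 members. The Msx2 stretch is chr13:53472731-53473030 and the Msx1 stretch chr5:37824536-37824835, both on the minus strand and written 5′ to 3′. Capitals mark matches on either strand to TAATT, the core that Msx and Dlx homeodomains bind, to the GC-rich elements GGCGCC and GGAGCC known from Smad binding, and to CCAAT, a general promoter box.
Msx2: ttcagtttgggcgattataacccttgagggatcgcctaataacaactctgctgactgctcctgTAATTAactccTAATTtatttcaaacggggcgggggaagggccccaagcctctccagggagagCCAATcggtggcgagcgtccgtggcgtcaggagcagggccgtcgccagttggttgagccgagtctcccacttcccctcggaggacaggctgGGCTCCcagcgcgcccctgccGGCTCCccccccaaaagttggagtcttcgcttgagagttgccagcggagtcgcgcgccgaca
Msx1: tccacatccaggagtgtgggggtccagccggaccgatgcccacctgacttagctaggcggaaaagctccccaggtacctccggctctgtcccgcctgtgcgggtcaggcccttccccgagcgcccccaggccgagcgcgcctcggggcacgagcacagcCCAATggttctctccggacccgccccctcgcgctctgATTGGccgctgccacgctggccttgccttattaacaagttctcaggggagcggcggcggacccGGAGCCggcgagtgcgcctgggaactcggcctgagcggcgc
The Msx2 stretch held 3 matches to TAATT, 2 of which overlap, 2 to GGAGCC and 1 to CCAAT. The Msx1 stretch held 0 matches to TAATT, 1 to GGAGCC and 2 to CCAAT, and neither held GGCGCC. Among 32851 stretches of the same length in the table, 27.0% held TAATT, 30.8% GGAGCC, 11.9% GGCGCC and 37.4% CCAAT. These matches are a description of letters, and binding was not measured.

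Dlx5, which directs jaw, limb and bone formation and in mouse has also been linked to fetal Leydig cells and uterine glands, had 1 probe set, 1449863_a_at. Its signal was 121.5 in the Misr2-/- pool, against 408.4 in the Misr2+/- pool. These are 0.872 times the median in Misr2-/- and 3.51 times in Misr2+/- ridges, so the Misr2-/- signal was a little under the floor. The log2 difference was -1.81 or lower, at rank 6 from the lowest, which is again the rank of a bound. Its identifier's suffix marks a probe set for several transcripts of the gene. Dlx6, its partner on chromosome 6 with overlapping roles in jaw and limb, had signals of 11 in Misr2-/- and 55.6 in Misr2+/- ridges. Both were under the floor, and no fold is given.

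**Figure D2:**
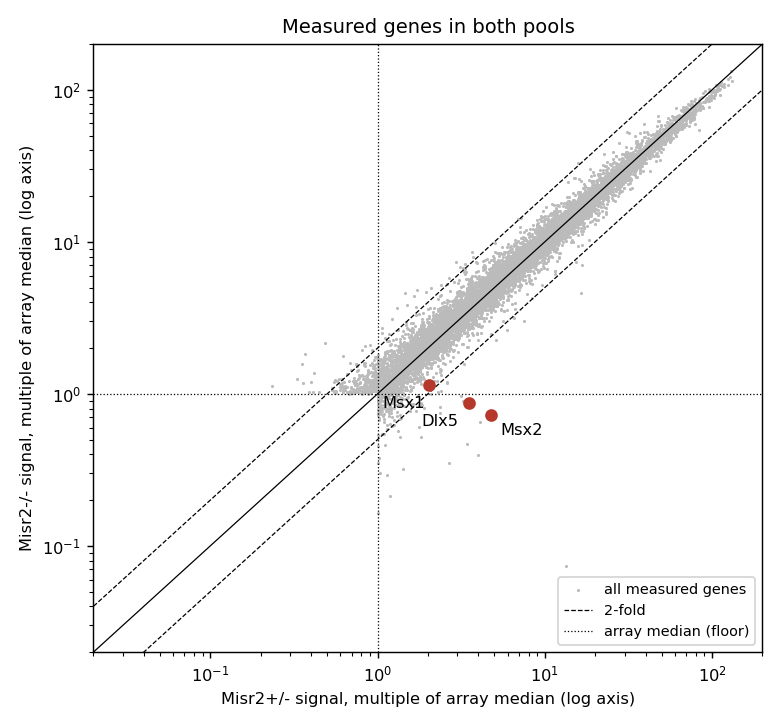
Signals of all 11431 measured genes as multiples of the array median in the Misr2-/- pool (vertical, log axis) and the Misr2+/- pool (horizontal, log axis), with 1 point per gene and its brightest probe set. Msx2, Dlx5 and Msx1 are marked; Msx2 and Dlx5 lie beyond the lower dashed 2-fold line, and Msx1 lies inside it at 1.77-fold.

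Dlx3, which acts in placenta, skin and tooth, had 2 probe sets on this array. The brighter, 1450475_at, had 17.5 in Misr2-/- and 68.6 in Misr2+/- ridges, and the dimmer, 1422037_at, had 11.8 in Misr2-/- and 18.5 in Misr2+/- ridges. Dlx4, its neighbour on chromosome 11, had 43.6 in Misr2-/- and 30.3 in Misr2+/- ridges on 1420595_at. On 1443591_at it had 26.8 in Misr2-/- and 34.7 in Misr2+/- ridges, so its probe sets ran in opposite directions. Dlx1 and Dlx2, the pair on chromosome 2 that drives forebrain interneuron development, were dim in both pools. Dlx2 had 25.5 in Misr2-/- and 28 in Misr2+/- ridges. Dlx1 had 1.8 in Misr2-/- and 1.3 in Misr2+/- ridges.

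The 9 member probe sets that missed the floor on both arrays do not resolve a difference. Without a floor, 6 of them had the lower median-scaled signal in the Misr2-/- pool and 3 the higher, beside 48.0% lower among all 14722 such probe sets with 1 gene symbol. The brighter Dlx3 probe set and Dlx6 were more than 4-fold lower on that scale. Of all such dim probe sets 4.36% were at least 4-fold lower and 4.68% at least 4-fold higher, so differences of that size occur in both directions at these signals.

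Transcripts named for the opposite strand of Dlx loci were also under the floor. Dlx6os1, a long noncoding RNA from the locus of Dlx5 and Dlx6, had 15.6 in Misr2-/- and 67.4 in Misr2+/- ridges. Dlx4os had 6.6 in Misr2-/- and 20.4 in Misr2+/- ridges, and Dlx1as had 5.2 in Misr2-/- and 2.1 in Misr2+/- ridges. Dlx6os2 had 6.2 in Misr2-/- and 7.8 in Misr2+/- ridges. Msx3, the remaining mouse Msx gene, known from the dorsal neural tube, had 5.2 in Misr2-/- and 8.6 in Misr2+/- ridges.

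In the authors' deposited table of fold changes, which lists 739 probe sets (1.64% of those on the array), 3 belonged to members. The authors' deposited table gives Msx2 a signed fold of -6.69 on 1449559_at and of -2.88 on 1438351_at, and Dlx5 one of -4.07. Negative folds there mean a lower value in the Misr2-/- pool, and no floor is applied. The smallest absolute fold listed in the authors' deposited table is 2. On its scale the brighter Dlx3 probe set and Dlx6 would have Misr2+/- over Misr2-/- ratios of 4.74 and 6.12, but they are not listed, and the sources used here do not state the filter.

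The genes that flank the members on the chromosome had small log2 differences after median scaling. The nearest measured protein-coding gene on each side of every member gave 10 genes, of which 0 differed 2-fold. Their log2 differences ran from -0.14 to 0.24 with a median of 0.08. Beside Dlx5 and Dlx6 lie Sem1, a small proteasome-associated protein, at 0.08, and Sdhaf3, an assembly factor of succinate dehydrogenase, at 0.24. Beside Msx2 lie Sptlc1, a subunit of the enzyme that starts sphingolipid synthesis, at 0.15, and Sfxn1, a mitochondrial serine transporter, at 0.20. Beside Msx1 lie Evc2, a ciliary protein of hedgehog signalling, at -0.11, and the syntaxin gene Stx18 at 0.09. Metap1d and Itga6 beside Dlx1 and Dlx2 had values of -0.14 and 0.06, and Itga3 and Kat7 beside Dlx3 and Dlx4 had values of 0.17 and 0.04. On the signals as deposited all 10 values are positive, and against the spikes all are negative.

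Genes that respond to BMP and Smad signalling, the class to which Msx genes are usually assigned, were listed from general knowledge with earlier results of these data known. Of 20 listed genes 15 were measured. Of the 15, 2 were at least 2-fold lower, beside 0.219% of all measured genes, and 0 were at least 2-fold higher. Below 0 lay 11 of the 15, beside 42.3% of all measured genes. As deposited, 0 were at least 2-fold lower. Their median log2 difference was -0.30, beside 0.04 over all measured genes (-0.04 as deposited and -0.69 against the spikes). Smad6, an inhibitory Smad, had 987.7 in Misr2-/- and 1933.3 in Misr2+/- ridges, 2.34-fold lower and above the floor in both. Sp7 (osterix), a zinc finger factor of bone formation that lies downstream of Dlx5 in osteoblasts, had 104.1 in Misr2-/- and 273.9 in Misr2+/- ridges, at least 2.35-fold lower. Sp7 and Nog reached the floor in the Misr2+/- pool alone, so the filter fixed their direction. Id4, an inhibitor of bHLH factors, had -0.84, and Bambi, a pseudoreceptor that dampens BMP signalling, had -0.60. Id1 and Id3, of the same family as Id4 and direct BMP targets, had log2 differences of -0.00 and -0.05. The inhibitory Smad gene Smad7 had -0.21 on its brightest probe set and 0.93 on another.

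BMP ligands, receptors and Smads had a median log2 difference closer to that of all measured genes. Of 15 measured genes 1, Amhr2 itself, was at least 2-fold lower, beside 0.219% of all measured genes. The median was -0.04 (0.22 as deposited and -0.43 against the spikes). Bmp4 and Bmp2, ligands that induce Msx genes in several embryonic tissues, had log2 differences of -0.54 and -0.33. Bmp4 had 579.2 in Misr2-/- and 705 in Misr2+/- ridges, and Bmp2 had 659.9 in Misr2-/- and 695.6 in Misr2+/- ridges. Bmp7 ran the other way at 0.45, with 424.5 in Misr2-/- and 259.5 in Misr2+/- ridges.

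Partners and described targets of Msx and Dlx proteins lay on both sides of 0. Of 30 listed genes 12 were measured, and 1 (Sp7) was at least 2-fold lower, beside 0.219% of all measured genes. That count was 0 as deposited and 0 for a 60th percentile floor. The median was -0.06 (0.20 as deposited and -0.44 against the spikes). Maged1, a protein that binds Dlx5 and Msx2, had -0.24, and Pias1, which binds Msx1, had -0.20, although another probe set of Pias1 stood at 1.02. Twist1, a bHLH factor of mesenchyme, had 0.50. Wnt7a, secreted by Müllerian duct epithelium, had 832.9 in Misr2-/- and 444 in Misr2+/- ridges, a log2 difference of 0.65 (0.22 on its other measured probe set). The interneuron and bone targets in the list, among them Gad1, Gad2, Ibsp and Col10a1, were under the floor in both pools.

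Homeobox genes of the same ANTP class outside the Hox clusters mostly were not measured, and none of those that were differed 2-fold. Of 53 listed genes 7 were measured and 42 were under the floor in both pools. Of the 7, 0 were at least 2-fold lower and 0 at least 2-fold higher, with a median of 0.23 (0.49 as deposited and -0.16 against the spikes). The largest differences were those of Tlx2, a gene of enteric and sympathetic neurons, at 0.56, and Emx2, a homeobox gene required for the urogenital system, at 0.47. Hhex and Nkx2-6 stood at 0.44 and at least 0.23. For Emx2 the signals were 2504.1 in Misr2-/- and 1511.9 in Misr2+/- ridges.

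**Figure D3:**
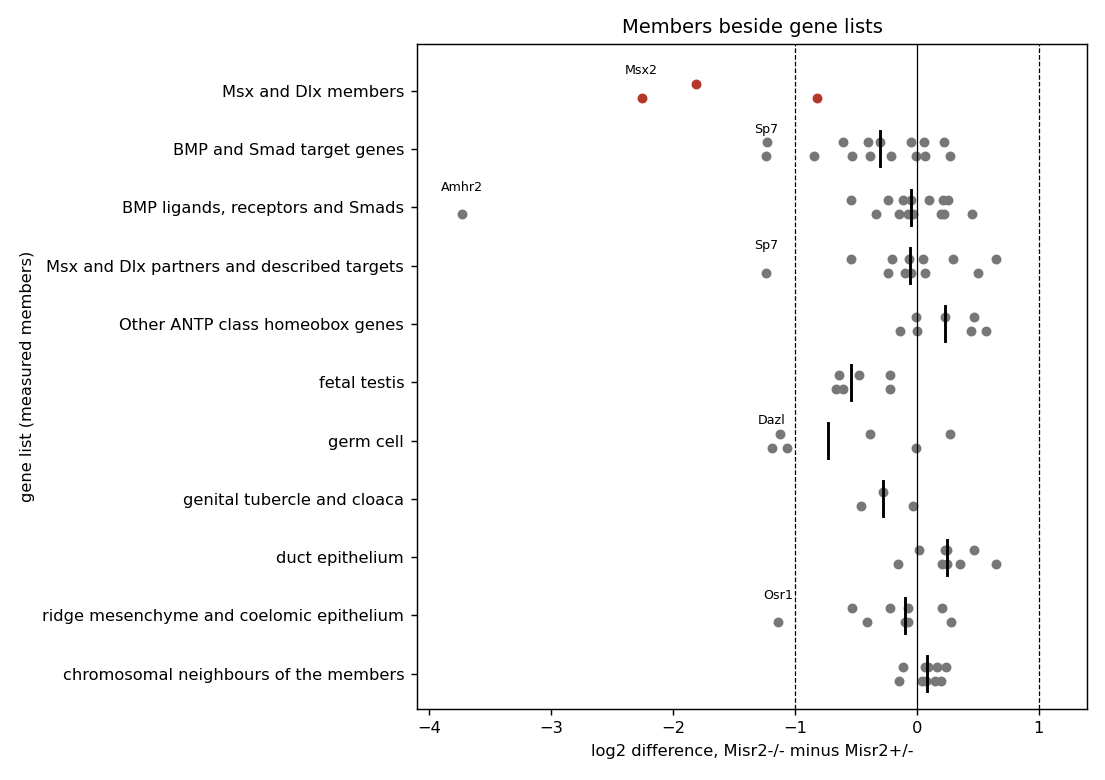
Log2 differences (Misr2-/- minus Misr2+/-, horizontal axis) of the 3 measured members, of gene lists with at least 3 measured genes, and of the 10 chromosomal neighbours, with 1 point per gene and a vertical bar at each list's median. Values with a signal under the floor are bounds, and some genes stand in more than 1 list. Msx2 and Dlx5 lie left of the dashed 2-fold line, as do Amhr2, Sp7, Smad6, Osr1 and 3 germ cell genes.

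Markers of cell types that could carry Msx or Dlx transcripts were read beside these results. Duct epithelium had all 9 of its listed genes on the array measured, and 1 lay below 0, beside 42.3% of all measured genes. Their median was 0.24, with Wnt7a, Emx2, Pax8 and Cdh1 at 0.65, 0.47, 0.36 and 0.25, and none was at least 2-fold lower. Against the spikes, where differences are lower by 0.39, this median falls below 0. Only Wnt7a and Emx2 of the duct genes stay above 0 there. The summed signal of the duct genes was 16708 in Misr2-/- and 11898 in Misr2+/- ridges, a ratio of 1.17 after median scaling. Ridge mesenchyme and coelomic epithelium had 9 of 10 genes measured with a median of -0.10. As deposited, where differences are higher by 0.26, this median lies above 0. Osr1, a factor of intermediate mesoderm, was 2.20-fold lower, beside 0.219% of all measured genes at least 2-fold lower. As deposited Osr1 falls short of 2-fold. Lhx9, Nr2f2 and Osr2 stood at -0.53, -0.41 and 0.28. The summed signal ratio over all 10 genes was 0.932.

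Most gonadal cell markers that were measured were lower in the same pool as the members, although gonads had been discarded. Of 8 fetal testis genes on the array 6 were measured, and all 6 were below 0, beside 42.3% of all measured genes, with a median of -0.54 and none of them 2-fold lower. Defb19 stood at -0.66 or lower, Sox9 at -0.64, Cyp17a1 at -0.60 and Hsd3b1 at -0.47. Defb19 and Dhh reached the floor in the Misr2+/- pool alone, so the filter fixed their direction. Cyp11a1, with 144.8 in Misr2-/- and 140.9 in Misr2+/- ridges, lay at -0.22 and turns positive as deposited. Star, which feeds steroid synthesis, was under the floor in both pools and ran the other way, at 135.7 in Misr2-/- and 81.7 in Misr2+/- ridges. The summed signal of all 8 genes was 1175.4 in Misr2-/- and 1392.2 in Misr2+/- ridges, a ratio of 0.706 after median scaling, and Amh, the defining Sertoli cell product, was at 5.5 in Misr2-/- and 19 in Misr2+/- ridges. All 6 germ cell genes were measured, with a median of -0.72. Dazl, Dppa3 and Dppa5a, 3 of the 6, were at least 2-fold lower, beside 0.219% of all measured genes. As deposited, where differences are higher by 0.26, these 3 fell short of 2-fold. Dazl stood at -1.19 on its brightest probe set and at -0.60 on its other measured one. Pou5f1 stood at -0.00 or lower, with 48.8 in Misr2-/- ridges, under the floor, and 116.8 in Misr2+/- ridges. Ddx4 and Pou5f1 reached the floor in the Misr2+/- pool alone, so the filter fixed their direction. Kit, above the floor in both pools, lay above 0 at 0.28. The summed signal of the 6 germ cell genes was 1131.1 in Misr2-/- and 1542.6 in Misr2+/- ridges. The part of gonadal cells in the Msx and Dlx values was not tested.

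Markers of other tissues known for Msx and Dlx genes were mostly under the floor. Of 7 cartilage and bone genes on the array 1, Col9a1, was measured, at 138.3 in Misr2-/- and 142.8 in Misr2+/- ridges. Of 6 surface ectoderm genes 1, Krt14, was measured, at 253.6 in Misr2-/- and 182.4 in Misr2+/- ridges, while Krt5 and Trp63 were under the floor. Of 4 forebrain interneuron genes 0 were measured. For genital tubercle and cloaca 3 of 4 genes were measured with a median of -0.28. Hoxd13 and Isl1 stood at -0.46 and -0.28 or lower. Both reached the floor in the Misr2+/- pool alone, so the filter fixed their direction. Shh, a signal from epithelium, had 828.2 in Misr2-/- and 708 in Misr2+/- ridges, a log2 difference of -0.03 after median scaling.

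The genes whose pair of median-scaled log2 signals lay nearest to a member, over these 2 arrays only, were looked up for the 3 measured members. For Dlx5 they were Gata5, a zinc finger factor, at a distance of 0.12, the synaptic calcium sensor gene Syt1 at 0.22, and Galnt5, whose product starts mucin-type glycans, at 0.48. The same 3 genes were nearest to Msx2, at distances of 0.64 for Gata5, 0.74 for Syt1 and 0.26 for Galnt5. Gata5 had 124.7 in Misr2-/- and 377.8 in Misr2+/- ridges, and Galnt5 had 90.9 in Misr2-/- and 478.4 in Misr2+/- ridges. For Msx1 the nearest were Rhox5, Kcnq5 and Gys1, at distances of 0.11, 0.13 and 0.15. Rhox5, an X-linked homeobox gene known from Sertoli cells and epididymis, had 151.2 in Misr2-/- and 248 in Misr2+/- ridges.

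Under every scaling tried Msx2 was lowest, then Dlx5, then Msx1. Scaling by a constant for each array shifts all 3 values alike and cannot change their order. Only quantile normalization and loess could have changed it. Across scalings Msx2 ran from -1.997 as deposited to -2.64 against the spikes, Dlx5 from -1.55 to -2.20 and Msx1 from -0.56 to -1.21. Raising the floor moved the 3 values further than any scaling did. With the floor at the 60th percentile of each array Msx2 stood at -1.39, Dlx5 at -0.94 and Msx1 at -0.15, and at the 75th percentile Msx2 was the 1 member still measured, at -0.04. With a pseudocount of 16 in place of the floor the values were -2.53, -1.86 and -0.76.

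**Figure D4:**
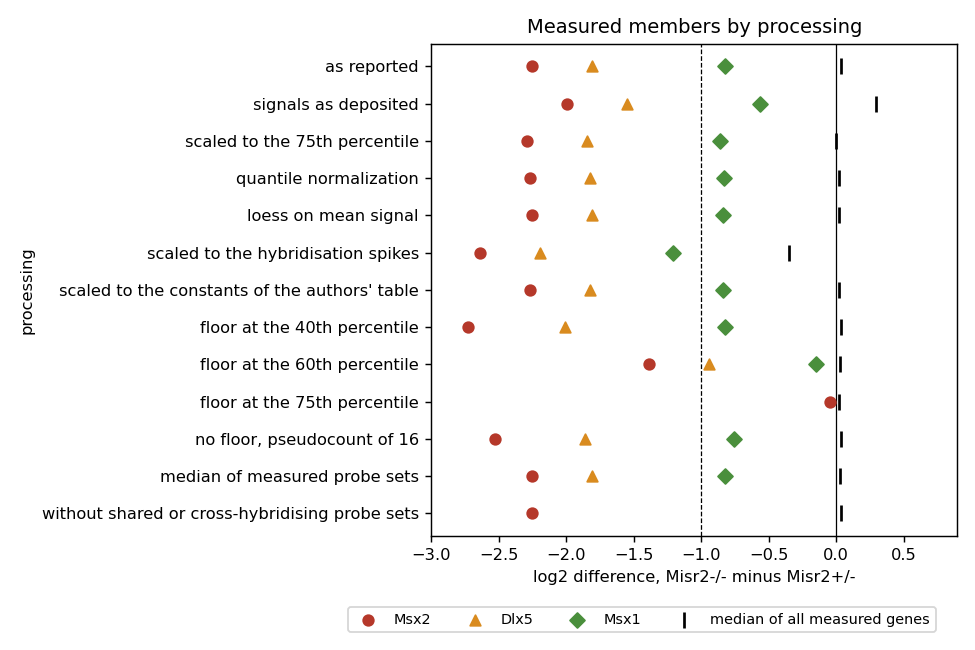
Log2 difference (Misr2-/- minus Misr2+/-, horizontal axis) of Msx2, Dlx5 and Msx1 under each processing (rows), with a black tick at the median of all measured genes and a dashed line at 2-fold. A missing symbol means that the gene was not measured under that processing. Msx2 lies left of the 2-fold line in all rows except the floor at the 75th percentile, where it is -0.04.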

How the data were processed

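Total RNA, extracted with Trizol and labelled with biotin per the labels, was measured on 1 Affymetrix array for each genotype. The values deposited are linear intensities, 1 for each probe set on each array; GCOS and MAS5 are named, without version or role, per the submitters' processing notes, and their scaling is not given in these sources. The authors' deposited table lists signals and a signed fold, read here as a score; its signals were 0.901 (Misr2-/-) and 1.09 (Misr2+/-) times the deposited ones.

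Of 45101 probe sets, 64 controls were left out. Of the other 45037, 34945 had 1 gene symbol, 932 several and 9160 none. A gene was represented by its probe set with the highest mean signal. Each array was divided by its median, signals under the median were set to it, and log2 differences were taken (Python 3.11.15, pandas 2.3.3, numpy 2.4.6, statsmodels 0.14.6 for loess). The procedure was tested on simulated data, with changes placed only in genes brighter than the members. That test does not cover values near the floor. Detection calls were not used, and the 2 arrays limit the precision. The SD of the difference between 2 probe sets of a gene was divided by the square root of 2. It was 0.26 for signals like those of the measured members and 0.23 over 5264 genes. It was taken from measured probe sets after flooring, does not cover the dimmer member probe sets, and leaves out variation between pools.

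Named were all members, Amhr2, the chromosomal neighbours, the 3 nearest genes per measured member, and list genes at least 2-fold different or among the 4 with the largest differences; others are named after their values were seen. The members and lists were chosen with earlier results of these data known. RefSeq (GRCm38.p6) gave names, chromosomes and promoter stretches; the array has no build. Alternatives were 6 other scalings, 3 other floors, a pseudocount, 2 other choices of probe set and 2 other fold thresholds. With 1 array per genotype no p-value was computed.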

Additional observations from a re-analysis of the deposited data

How the results depend on the processing

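The direction of Msx2, Dlx5 and Msx1 was the same under every alternative in which they were measured. This was largely fixed in advance, since a higher floor shrinks a difference and the scalings shifted values by less than these differences. The dimmer Msx1 probe set, which ran the other way, entered none of these values. Values next to the floor limit these results: the Misr2-/- signals of Msx2 and Dlx5 are bounds, and the cause of their level was not tested. No paired analysis was possible because each genotype had 1 array, and for the same reason no array could be left out. The number of members at least 2-fold lower, 2 as reported, was 1 (Msx2) for a floor set to the 60th percentile, 0 for the 75th, and 1 (Msx2) without probe sets whose suffix marks shared or cross-hybridising sequences, which removes Dlx5 and the bright Msx1 probe set; it was 3, with Msx1, against the spikes and at 1.5-fold, and 2 under the other alternatives, and the number higher was 0 under all. The members' median, -1.81 as reported, was -1.55 as deposited, -2.20 against the spikes, -1.41 for a 40th percentile floor (with Dlx3 as the 4th measured member), -0.94 for the 60th, -0.044 for the 75th (1 member) and -2.26 without shared probe sets (1 member). The counts of all genes at least 2-fold lower and higher, 25 and 27 as reported, were 11 and 90 as deposited, 88 and 4 against the spikes, 38 and 47 for a 40th percentile floor, and 4 and 2 for the 75th. The lower count was 12 for a 60th percentile floor and 38 for a pseudocount of 16. At 1.5-fold they were 101 and 238, and at 3-fold 9 and 1. Of 132 further values of single probe sets and lists, 101 stayed within the spread between probe sets or within 1.5 times, and 31 moved further. The lists rerun were the BMP and Smad targets, the BMP ligands, receptors and Smads, the Msx and Dlx partners and the other homeobox genes. Cell type marker lists were not rerun under the alternatives. Among the lists rerun, the medians of 3, none of them past 2-fold, changed sign. BMP ligands, receptors and Smads and the Msx and Dlx partners did so as deposited (0.22 and 0.20). The partners also did so for a 75th percentile floor (0.055), and the other homeobox genes against the spikes (-0.16).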
